A study of Mus musculus with 2 samples.

Results

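Lefty1, Lefty2 and Tdgf1 are 3 genes of the Nodal signalling pathway, and they were followed here in mouse ES cells at day 0 and in EB cells at day 4, with 1 bead array for each sample. The labels do not spell out ES and EB, which by usage in the field mean embryonic stem cells and the embryoid bodies that form when such cells aggregate and begin to differentiate. They give no strain, cell line, sex or culture medium and no treatment beyond the day, so nothing more can be said of what both samples share. Per the labels, biotin-labelled total RNA was measured, and the arrays were meant to be set beside transcriptome sequencing, which is not analysed here. The members were taken as all probes whose target identifier carries the NCBI Gene number of one of the 3 genes behind padding zeros. This gave 4 probes of 46643 on the array, and 3 genes of 8102 that could be named in this way. Lefty1 (Gene number 13590) and Lefty2 (320202) had 1 probe each and Tdgf1 (21667) had 2.

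Nodal is a secreted ligand of the TGF-beta family that patterns the early embryo and acts in pluripotent cells. It signals through activin receptors, which need a co-receptor of the EGF-CFC family. The activated receptors pass the signal to Smad proteins, which carry it into the nucleus. Tdgf1, also called Cripto, is such a co-receptor, anchored to the outer cell membrane. Lefty1 and Lefty2 are secreted relatives of the TGF-beta ligands that block Nodal and its co-receptor, and they are themselves induced by Nodal signalling, which makes them feedback inhibitors. Lefty1 is also known as an abundant transcript of undifferentiated mouse ES cells.

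Of the members, only Tdgf1 was matched in the RefSeq promoter table (assembly GRCm38.p6), so its start-site window is the one shown. Lefty1 and Lefty2 had no entry there. The window was searched for motifs, among them those of the pathway's own transcription factors. The window covers chr9:110946109-110946408 on the minus strand, from 250 bases before the annotated start of transcription to 50 bases after it, and is written 5′ to 3′ along the gene. Capitals mark the matches to the Foxh1 motif.
Tdgf1 promoter: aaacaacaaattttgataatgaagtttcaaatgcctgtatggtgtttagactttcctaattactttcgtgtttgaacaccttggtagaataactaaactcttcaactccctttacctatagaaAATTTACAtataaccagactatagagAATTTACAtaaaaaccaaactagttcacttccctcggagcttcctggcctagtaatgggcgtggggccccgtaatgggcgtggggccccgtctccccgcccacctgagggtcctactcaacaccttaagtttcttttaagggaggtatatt

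The motif TGTNNATT of Foxh1, the forkhead factor that partners Smad proteins, was found 2 times in this window, both as the reverse complement AATNNACA, at 127 and 101 bases before the start. Of 32851 windows of the same length in the table, 12.2% held it on either strand. The short Smad motif GTCT occurred 3 times on either strand without overlapping a Foxh1 match, and 88.0% of all windows held it. The octamer core TTTGCAT (4.63% of windows) and the string CACCC (57.5%), searched for Klf factors, had no match on either strand. Other forms of Klf site were not searched, so their absence from the window is not shown. A TATAA match, carried by 24.9% of windows, lay 119 bases before the start, next to the upstream Foxh1 match. These are matches of letters in a fixed window and describe no binding.

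Values are signal intensities, each the mean over the beads of 1 probe, quantile normalized over both arrays. Each normalized signal is read against a signal floor of 230.0, the normalized signal at which the deposited detection score of the EB array passed 0.99, and against the median of all probes, 173.7. A log2 difference is EB minus ES, so that negative values mean a lower signal in EB, and 2-fold corresponds to a log2 difference of 1. The error beside it is the bead-level standard error, which covers the beads within an array and nothing else. Since neither group was replicated (1 sample each), no test was possible, and culture, array and group cannot be told apart. In samples of many cells, fewer expressing cells and less RNA per cell cannot be told apart either. The array measures each probe on its own scale, so signals, or sums over a fixed set of probes, are compared between samples, and genes with each other only through their differences. Before normalization the median signal was 173.9 in ES and 173.3 in EB, with a median of 38 and 37 beads behind a probe. About 28.4% of probes exceeded the floor in each array, a share that quantile normalization makes equal by construction. The median bead-level error of those probes was 4.49% of the signal in ES and 4.38% in EB.

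The labelled cell types were read from marker genes. Of 8 markers of undifferentiated ES cells 5 had a named probe; all 5 were above the floor in ES and 2 in EB, and the normalized signals of these 5 probes summed to 29469 in ES and 3714 in EB. Nanog made up 14530 and 2760 of these sums, and Zfp42, Klf4 and Dppa3 were under the floor in EB. Markers of the primitive streak and mesoderm ran the other way, with 2 of 8 having a named probe. Of these, Eomes was above the floor in ES, and both Eomes and Lhx1 in EB. Lhx1 and Otx2, the named members of 6 anterior visceral endoderm markers, were also higher in EB. Otx2 was the only 1 of 5 primed epiblast markers with a named probe. Of 10 primitive and visceral endoderm markers 3 had one. Gata4 was under the floor in ES and at least 1.97-fold higher in EB. Apoa1 (log2 difference 0.13) and Dab2 (0.46) did not reach 2-fold. These few probes do not tell such cell types apart. Of 7 feeder fibroblast markers 5 had a named probe, and Col1a2, Col3a1, Dcn and S100a4 were under the floor in both samples. Col1a1, a collagen chain, had signals of 2602 and 1007, and the summed signal of these 5 probes was 3292 in ES and 1622 in EB, where 5 probes at the floor would sum to 1150. The part of such cells in the values below was not tested. None of the 5 node markers had a named probe.

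The 2 inhibitors were both lower in EB, Lefty1 by far more than Lefty2, while the co-receptor Tdgf1 had signals near background in both samples. The deposited signal of Lefty1 (identifier scl013590.4_108-S) was 4480.4 in ES over 37 beads and 263.1 in EB over 29 beads. The spread between beads, read as a standard error of the mean, was 3.30% of the signal in ES and 7.23% in EB. After normalization the signals were 4572 and 271, a 16.9-fold lower signal in EB that left 5.92% of the ES signal. The log2 difference was -4.08 with a bead-level standard error of 0.11 and a 95% interval from beads of -4.30 to -3.85.

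Lefty1 was thus a bright probe in ES, 19.9 times the floor, and a dim one in EB, 1.18 times the floor, although its detection score of 0.9975 in EB still passed the limit. In EB its signal was 1.56 times the median of all probes, which lies under the floor. An EB signal at that median would have given a log2 difference of -4.72, not far beyond the -4.08 measured. The size of the difference depended on how background was treated. With the values of the series table, in which low signals are stretched downward, the signals were 4389 and 87.7, a 50.1-fold difference. Under each of 7 other settings of scaling, background, floor or probe choice the log2 difference of Lefty1 lay between -5.65 and -4.08.

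The single probe of Lefty2 (scl00320202.1_47-S) gave deposited signals of 2083.8 in ES over 37 beads and 818.8 in EB over 28 beads, with a bead-level error of 3.21% and 5.54%. The normalized signals were 2107 and 811, a 2.60-fold lower signal in EB that left 38.5% of the ES signal. The log2 difference was -1.38 with a bead-level standard error of 0.09, and its 95% interval from beads ran from -1.56 to -1.20. In contrast to Lefty1, Lefty2 remained well measured in EB, at 3.53 times the floor and with a detection score of 1. Here the treatment of background mattered less, and the log2 difference lay between -1.61 and -1.34 over the same 7 settings.

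The 2 inhibitors were not lower to the same degree. The log2 difference of Lefty1 minus that of Lefty2 was -2.70, with a bead-level standard error of 0.15 and a 95% interval from beads of -2.99 to -2.41. The 2 genes are close copies of each other and share synonyms, Ebaf and Leftb, in the gene table. How far each probe also takes up transcript of the other gene was not tested, because probe sequences were not used here. The probes did report unequal ratios, by more than the bead-level error.

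**Figure D1:**
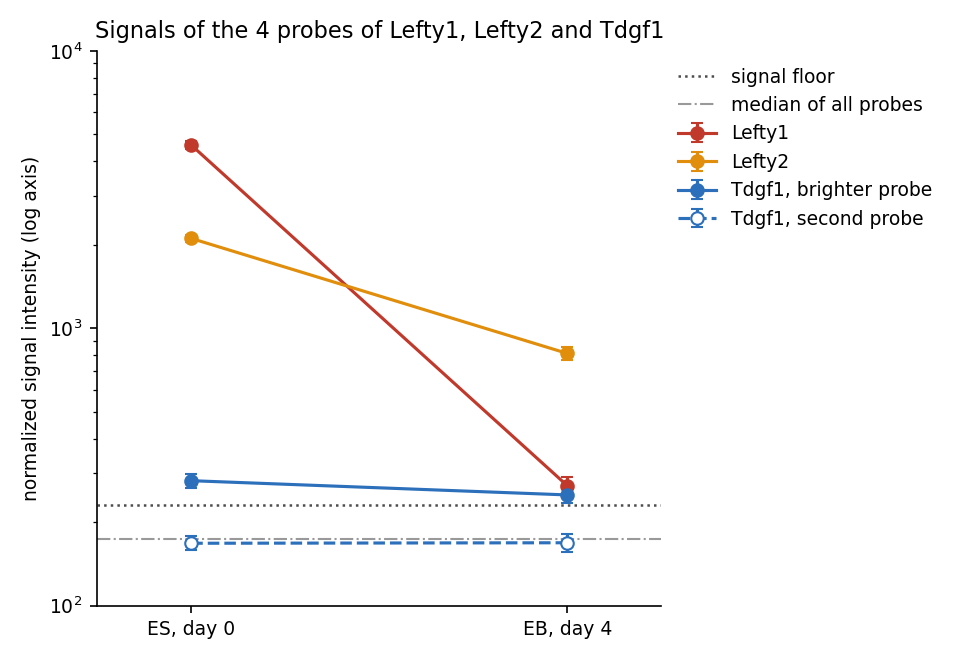
Normalized signal intensity (log axis) of each probe of Lefty1, Lefty2 and Tdgf1 in ES at day 0 and EB at day 4, 1 array each; error bars are bead-level standard errors, the dotted line is the signal floor of 230.0 and the dash-dotted line the median of all probes. Lefty1 is at 4572 in ES and 271 in EB and Lefty2 at 2107 and 811, while both Tdgf1 probes are near or under the floor; heights of different probes are not comparable with each other.

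Tdgf1 was represented by 2 dim probes. The brighter one (scl021667.1_237-S) had deposited signals of 289.8 in ES and 244.5 in EB, over 34 and 31 beads, and a detection score of 0.99563 in EB. Its normalized signals were 282 and 251, or 1.23 and 1.09 times the floor. The log2 difference was -0.17 with a bead-level standard error of 0.13, and its 95% interval from beads, -0.42 to 0.08, included 0. The second probe (scl0021667.1_330-S) had deposited signals of 167.9 and 168.5, under the floor in both arrays, with a detection score of 0.71179. It lay at 0.97 times the median of all probes in each array, and no ratio is given for it.

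The reach of the Tdgf1 probe was short. An EB signal at the median of all probes would have given a log2 difference of -0.70, which is short of 2-fold. With the series table the log2 difference was -0.54, and over the 7 settings it ranged from -0.54 to -0.08 without passing 2-fold. A difference in the Tdgf1 transcript between these samples was not detectable with these probes. How well the 2 probes take up this transcript was not tested, so their dim signals do not show that it was scarce in either sample.

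Against the whole array, the inhibitors stood in the lower tail. Of 3867 named genes above the floor in at least 1 array, 207 (5.35%) were 2-fold or more lower in EB and 144 (3.72%) 2-fold or more higher. Of the 3 members 2 were 2-fold lower and 0 higher. Lefty1 had the difference at place 5 from the lowest of all 3867, and Lefty2 that at place 112. The middle of the distribution lay at 0.06, with quartiles of -0.26 and 0.35, and 95% of genes fell between -1.42 and 1.19. Tdgf1, at place 1232, lay within the quartiles. The members were chosen with earlier results of these data known, so these places describe them and support nothing further.

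Genes of like brightness gave a narrower frame. Among 364 genes with a mean log2 signal within 0.25 of that of Lefty1, 22 (6.04%) were 2-fold lower. Among 349 genes around Lefty2 the number was 20 (5.73%). Among 700 genes around Tdgf1, in the dim range, 35 were 2-fold lower on their measured signals. At that mean signal a 2-fold difference places the dimmer signal under the floor by construction, and Tdgf1 was above it in both arrays.

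**Figure D2:**
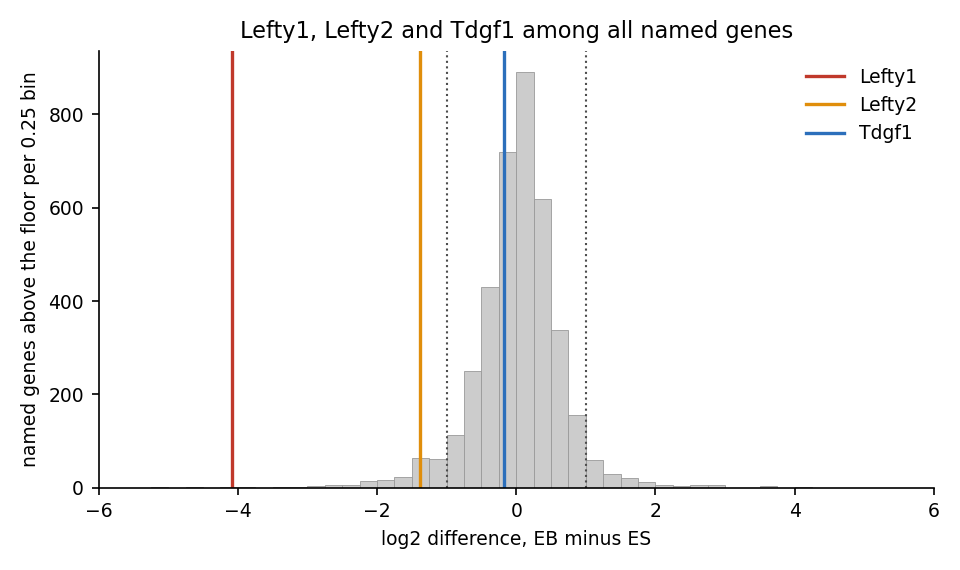
Number of named genes above the signal floor in at least 1 array (3867 genes) per bin of the log2 difference, EB minus ES, with vertical lines at Lefty1, Lefty2 and Tdgf1 and dotted lines at 2-fold in either direction. Lefty1 at -4.08 lies far out in the lower tail, Lefty2 at -1.38 just past the 2-fold line and Tdgf1 at -0.17 inside the main body.

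The genes closest to each member in both log2 signals were picked over these 2 samples. Because the choice uses signal levels, probe brightness enters it, and the genes are named with their ratios only. For Lefty1 they included Cobl, an actin nucleator, with a log2 difference of -3.85, and Dppa4, a marker of undifferentiated ES cells, with one of -4.22. Zfp42, another such marker, and Spp1, which encodes osteopontin, had EB signals under the floor and were lower by at least 22.8-fold and at least 23.0-fold. For Lefty2 they were Alpl (-1.36), the alkaline phosphatase used to stain undifferentiated ES cells, Stat3 (-1.39), the transcription factor of LIF signalling, 1500009L16Rik (-1.50) and Arhgap23 (-1.15). The genes picked for Tdgf1, Nrros, Nnat, Lysmd1 and Acaa1b, had differences from -0.22 to -0.14.

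Most other measured genes of the pathway were within 2-fold of equal signal. Besides the 3 members 59 genes were listed as ligands, receptors, Smads with their partners, inhibitors and targets. A named probe existed for 23 of them, 17 were above the floor in at least 1 array and 6 were under it in both. Of the 17, 1 was 2-fold lower (5.88%, against 5.35% of all named genes), 4 were 2-fold higher (23.5% against 3.72%), and 12 did not reach 2-fold on their measured signals, among them Acvr2a with an ES signal under the floor. The median log2 difference of the 17 was 0.06, also with signals under the floor set to it, and that of all named genes was 0.06. The list was drawn up with earlier results of these data known, so these shares describe it and support nothing further. Nodal itself, Smad2, Smad3, Foxh1 and Cer1 were among the 36 genes with no named probe and are not analysed here.

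Ligands and processing were covered by 2 genes. Gdf1, a ligand that can pair with Nodal, gave 783 in ES against 702 in EB, with a log2 difference of -0.16 (bead-level standard error 0.10). Furin, a protease that cleaves the precursors of such ligands, was near the floor with signals of 241 and 265. Among receptors, the type II receptor gene Acvr2a had a signal under the floor in ES and one of 281 in EB, at least 1.22-fold higher. The type I receptor gene Acvr1b was under the floor in both arrays.

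Of 7 Smad and partner genes with a named probe 5 were above the floor, and none of these reached 2-fold. Smad4, the Smad shared by all branches of the family, had the largest difference among them, with signals of 3153 and 4961 and a log2 difference of 0.65 (bead-level standard error 0.04), a difference wider than its bead-level error. Trim33, a ubiquitin ligase that binds Smads (-0.04), Med15, a Mediator subunit (-0.21), Wwtr1, the coactivator TAZ (0.06), and Rnf111, the ligase Arkadia (0.01), lay close to 0. Ep300 and Zfyve9 were under the floor in both arrays.

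Inhibitors went both ways. With the 2 Lefty genes, 8 inhibitors were above the floor. Of these, 3 were 2-fold lower (37.5%, against 5.35% of all named genes) and 1 was higher (12.5%, against 3.72%). Nedd4l, a ubiquitin ligase that targets activated Smads, had signals of 1231 and 574, a log2 difference of -1.10 (bead-level standard error 0.09). Fst, the secreted activin antagonist follistatin, was 3.95-fold higher in EB, with signals of 260 and 1024. The log2 differences of Smurf1, another ubiquitin ligase (-0.44), Dact2, which promotes breakdown of Nodal receptors (-0.29), Ppm1a, a phosphatase (-0.11), and Tgif2, a corepressor (0.35), did not reach 2-fold. Dand5, Ski and Ldlrad4 were under the floor in both arrays. Secreted inhibitors were therefore measured in opposite directions, the 2 Lefty genes lower and Fst higher.

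All 3 measured target genes were 2-fold or more higher in EB, against 3.72% of all named genes. The other 11 of the 14 listed targets had no named probe. Lhx1, a homeobox factor, was under the floor in ES and at least 9.16-fold higher in EB. Eomes, a T-box regulator of the forming mesoderm and endoderm, was 7.06-fold higher, and Otx2, a homeobox factor of the epiblast and anterior endoderm, 4.59-fold higher. The Lefty genes are targets of the pathway too, but were lower. Other inputs also act on all of these genes, and the signalling itself was not measured. Of the 2 genes listed here as further binding partners of Cripto, the glypican gene Gpc1 was 2.95-fold higher, with signals of 1153 and 3399.6. The chaperone gene Hspa5 had a log2 difference of 0.03.

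The pluripotency factors, which maintain the undifferentiated state, were lower in EB like the Lefty genes. Of 14 listed 8 had a named probe and all 8 were above the floor in ES. Of these, 7 were 2-fold lower (87.5%, against 5.35% of all named genes) and 0 higher (against 3.72%). The median log2 difference of the 8 was -2.49 (-2.47 with signals under the floor set to it), against 0.06 for all named genes. This list, too, was drawn up with earlier results of these data known, so the counts only describe it. The difference of Lefty1 (-4.08) fell between those of Klf5 (-3.00) and Klf2 (-5.18), factors of naive pluripotency. The EB signals of Lefty1 (271) and Klf2 (252) were both close to the floor, which limits how these sizes can be ranked. The difference of Lefty2 (-1.38) was close to that of Stat3 (-1.39). Sox2 was under the floor in EB and at least 2.14-fold lower. Zfp281, at -0.46, was the member of this list that did not reach 2-fold. Pou5f1 and Esrrb had no named probe and are not analysed here.

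**Figure D3:**
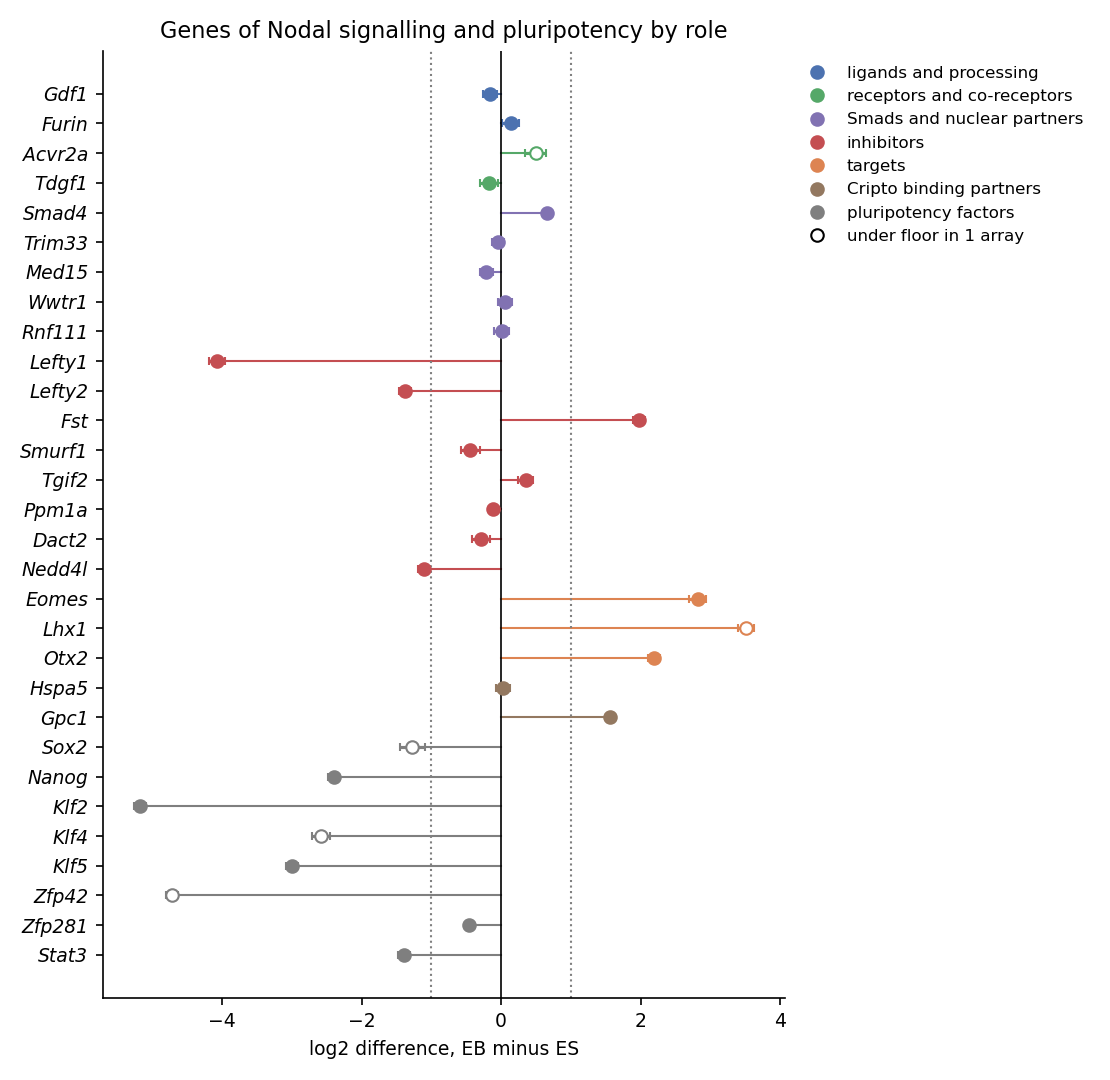
Log2 difference, EB minus ES, of each listed gene above the signal floor in at least 1 array, coloured by role; bars through the points are bead-level standard errors, open points have 1 array under the floor, and dotted lines mark 2-fold. Lefty1 and Lefty2 lie on the side of the pluripotency factors, the targets Eomes, Lhx1 and Otx2 on the other side, and the ligand, receptor and Smad genes within 2-fold.

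Lefty1 and Lefty2 are near neighbours on chromosome 1 in the RefSeq table (GRCm38.p6). The 10 nearest other genes with a probe above the floor around the pair (up to 5 on each side of each Lefty gene) were mostly within 2-fold. Of these, 1 was 2-fold lower and 0 higher, where 5.35% and 3.72% of all named genes were. Of the 10 differences 5 were negative. Tmem63a, the gene listed directly after Lefty1, encodes an ion channel and had signals of 554 and 319.95, a log2 difference of -0.79 (bead-level standard error 0.11). H3f3a, a gene for histone H3.3 on the Lefty2 side, had a difference of 0.66, and Parp1, a DNA repair enzyme, one of -0.33. Enah, an actin regulator 27 genes beyond Lefty1, was the 1 lower gene, at -1.75. Gm5069, Ahctf1, Hnrnpu, Srp9 and Degs1 ranged from -0.40 to 0.59, and Nvl had an ES signal under the floor and one of 261 in EB.

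Around Tdgf1, on chromosome 9, 0 of 10 such neighbours were 2-fold lower and 2 were higher, against 5.35% and 3.72% of all named genes. Pth1r, the parathyroid hormone receptor gene, was under the floor in ES and at least 2.09-fold higher in EB, and Epm2aip1 had signals of 368 and 745, a log2 difference of 1.02. Glb1, the lysosomal beta-galactosidase gene, had the lowest difference, -0.89. Ubp1 was under the floor in EB, with a signal of 237 in ES. The other 6, among them Setd2, a histone methyltransferase gene (-0.14), and Smarcc1, a gene of a chromatin remodelling complex (0.19), ranged from -0.14 to 0.24.

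**Figure D4:**
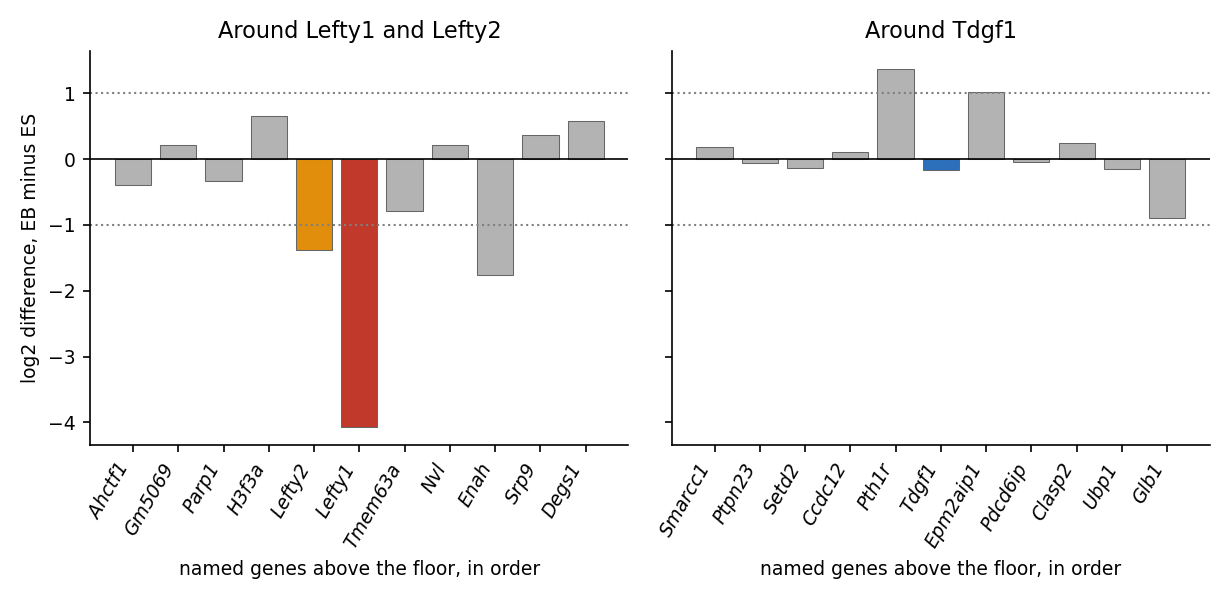
Log2 difference, EB minus ES, of the nearest named genes above the signal floor on each side of Lefty1 (left, Lefty2 included) and Tdgf1 (right), in gene order and not to distance; dotted lines mark 2-fold. The 2 Lefty bars reach -4.08 and -1.38, and of the grey neighbours Enah passes 2-fold downward and Pth1r and Epm2aip1 upward.

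The ordering of the 3 members was the same under all settings tried. Lefty1 had the lowest log2 difference, Lefty2 the next and Tdgf1 the one closest to 0 in the main values and in each of 7 alternatives. Lefty1 and Lefty2 were past 2-fold in all of them and Tdgf1 in none. Setting signals to the floor could not move any member, since the probes standing for them were above it in both arrays. Averaging over probes could move only Tdgf1, since each Lefty gene had a single probe.

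**Figure D5:**
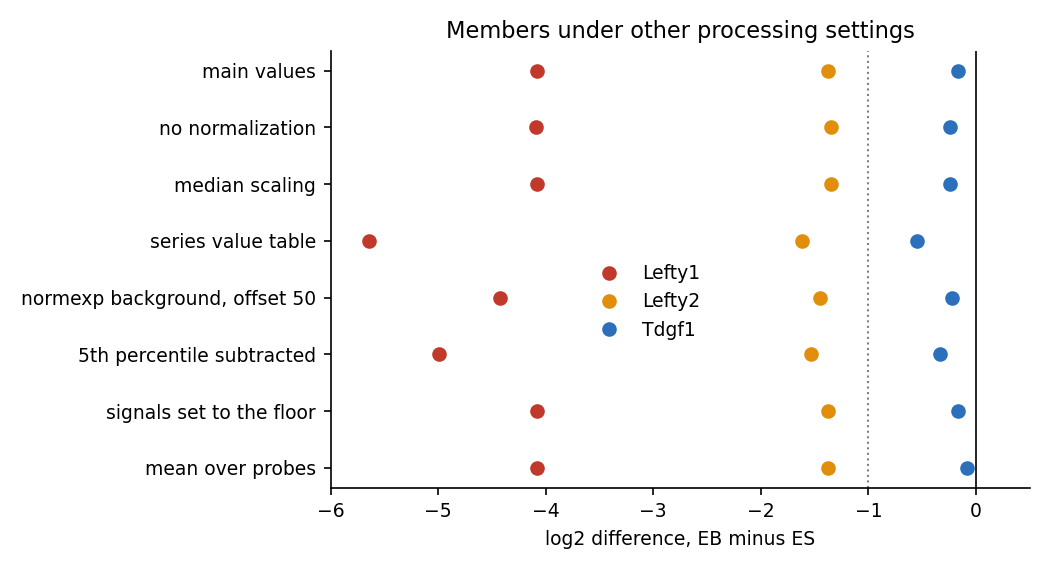
Log2 difference, EB minus ES, of Lefty1, Lefty2 and Tdgf1 in the main values and under each of 7 other processing settings; the dotted line marks 2-fold. Lefty1 moves between -5.65 and -4.08 with the treatment of background, Lefty2 between -1.61 and -1.34 and Tdgf1 between -0.54 and -0.08.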

How the data were processed

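The deposited intensities are bead means exported from BeadStudio 2.3.41 and not normalized, per the file headers. Both sample titles carry the words normalised data, and this conflict with the headers was not resolved. The submitters' processing notes also name RMA and limma, with no role given. The deposited detection score, a fraction from 0 to 1, was in the EB file alone. The series table holds intensities of the authors' own processing, ranked like the sample files (Spearman correlation 1) but with medians of 16.7 in both arrays; how they were made is not stated.

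The intensities were quantile normalized with no background subtracted and then log2 transformed. The deposited bead spread was taken as a standard error, since it fell with bead number (log slopes of -0.44 and -0.47, against -0.5 for a standard error). Padded numbers of at least 10000 were read as NCBI Gene numbers, and 9796 of 11857 such probes (82.6%) matched the RefSeq table. The probe with the highest mean log2 signal stood for a gene, and a gene counted if it exceeded the floor in either sample. The text names all member probes, pathway genes by role, 5 neighbours each side and the 4 most similar genes. Protein comparisons were not made. Members and lists were chosen with earlier results of these data known. The normalization was tested on simulated data. Software was Python 3.11.15 and limma 3.58.1 in R 4.3.3. The number of arrays limits the precision.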

Additional observations from a re-analysis of the deposited data

How the results depend on the processing

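No paired analysis was possible because ES and EB have a single array each, which also means that neither could be left out. With the values of the series table the log2 difference was -5.65 for Lefty1, -1.61 for Lefty2 and -0.54 for Tdgf1. For Lefty1 normexp background correction (offset 50) gave -4.43 and subtraction of the 5th percentile -4.99. These values lay outside the 95% interval from beads around the main ones. Under the other alternatives the members' differences stayed inside it, and none changed sign. The 207 lower and 144 higher named genes became 468 and 527 with the series table, 381 and 357 with the 5th percentile subtracted, 463 and 479 at 1.5-fold and 40 and 23 at 4-fold. With a signal above the floor in both arrays 134 were lower. The series table and the 1.5-fold limit thus each also turned the balance from more lower to more higher genes. Of the other pathway genes 0 were lower at 4-fold, and 3 to 5 were higher over 12 settings. Dim signals limit what the Tdgf1 probes and the EB signal of Lefty1 can show.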
